A study of Mus musculus with 24 samples.

Results

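The Hox genes encode homeodomain transcription factors that give cells along the body axis their regional identity. In mammals they lie in 4 clusters, named a to d, and members of different clusters that descend from the same ancestral gene share a paralog number. Within a cluster the paralog number follows the order of the genes along the chromosome, and in the embryo this order matches the order in which the genes are switched on from the front to the rear of the axis, so that high numbers are known as posterior. HOX proteins bind DNA together with cofactors of the TALE class (PBX, MEIS and PKNOX), and caudal factors (CDX) and retinoic acid are known inputs to the clusters. In the adult gut, posterior Hox genes are known to mark the hindgut, from which the colon derives.

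All 39 protein-coding genes with a mouse Hox symbol were described, out of 45513 genes counted, of which 21578 were protein-coding. They were chosen by name alone, without regard to any measured value. The Hoxa cluster holds 11 members (GRCm38, chr6:52155590-52260880), the Hoxb cluster 10 (chr11:96194316-96368256), the Hoxc cluster 9 (chr15:102921103-103036852) and the Hoxd cluster 9 (chr2:74668310-74765142). Paralog numbers run from 1 to 13.

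The 24 libraries were made from messenger RNA of live EpCAM+ tdTomato+ cells sorted from the mouse intestine 24 h after a single intraperitoneal dose of 3 mg tamoxifen. The control mice (WT) were homozygous for Atoh1(WT)CreERT2, and the mutants (9S/T-A) were homozygous for Atoh1(9S/T-A)CreERT2, in which 9 serine or threonine phosphorylation sites of ATOH1, the transcription factor that specifies secretory cells, were changed to alanine. Both groups therefore carried CreERT2 at the Atoh1 locus, with the R26R tdTom reporter, described in the methods as heterozygous for lineage tracing, so the sorted cells were those in which the Atoh1 locus had driven Cre. Mice were 8 to 16 weeks old, of both sexes and of C57BL/6 background. The small intestine (SI) was its proximal 15 cm, the villus-enriched fraction was discarded, and the sources used here do not say which stretch of the colon was taken. Genotype and tissue gave 4 groups of 6, with library numbers from 2 to 7 in every group, the numbers 2, 5 and 7 from females and 3, 4 and 6 from males. The series text states 6 mice in total, while a legend for these data gives n = 6 for each genotype without saying what it counts. The labels do not say what a number marks, so p-values measure the spread between these libraries, part of which may be technical. The study asked what the mutation does to secretory cells of both tissues.

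Total counts were 36 to 65.8 M per library (M for the prefix mega). Levels are given as CPM, counts per M counted, with TMM scaling over the 24 libraries, and levels of different genes are compared only per kb of exon. Over all genes, plain library totals in place of TMM moved the median log2 difference of colon from SI from 0.03 to 0.74 in WT and from 0.04 to 0.85 in 9S/T-A. Region markers matched the tissue labels. Gata4, Pdx1 and Onecut2, which mark the proximal intestine, summed to 189 to 233 CPM in WT SI and 0.435 to 1.11 CPM in WT colon, and the colon marker Car1 was at 0.504 to 1.06 CPM in WT SI and 173 to 462 CPM in WT colon. Markers of stroma were low. Of 7 fibroblast markers, Col3a1 and Lum had 0 counts in all groups and 6 stayed under 1 CPM in every library, while the whole list summed to 1.73 to 2.92 CPM in WT SI and 7.83 to 12.5 CPM in WT colon, its remaining gene being Pdgfrb. Smooth muscle markers summed to at most 1.02 CPM and endothelial markers to at most 0.744 CPM in any library. The 5 leukocyte markers summed to 7.21 to 15.6 CPM in WT SI and 0.866 to 2.49 CPM in WT colon, the opposite direction to the Hox genes. The 4 secretory markers also differed, at 58000 to 75600 CPM in WT SI against 12500 to 17800 in WT colon. The part of cell makeup in the tissue differences was not tested. In bulk RNA, fewer cells of a type and less RNA per cell cannot be told apart. Both colon libraries numbered 7 stood apart in Hox genes, as described below. The results were also computed with number 7 left out of every group, SI included, and with each library left out in turn.

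Promoters were looked at because the members tested were all higher in colon than in SI, though to unlike degrees. RefSeq windows of 300 bases, reaching from 250 bases before the gene start to 50 after it (GRCm38.p6), were matched by symbol to 22 of the 39 members, some with more than 1 start, which gave 24 windows. Of the Hoxb members only Hoxb1, Hoxb4 and Hoxb8 had a window, so Hoxb13 and Hoxb9, the highest Hox genes in colon, had none. The 24 windows held a median of 14.5 CpG dinucleotides, against 7 over all 32851 windows of that length, with a range from 4 to 45. The letters TTTATG, the core bound by caudal factors, were found on either strand in 5 of the 24 windows (Hoxa7, Hoxb8, Hoxd3, Hoxd4 and Hoxd11) and in 11.9% of all windows. The letters CAGCTG, the E box core bound by ATOH1 and other factors of its class, were found in 4 windows (Hoxa3, Hoxa5, Hoxa6 and Hoxa11) and in 16.3% of all windows. A match is a description of letters and not a shown binding site. The windows printed are those of 2 members of the posterior end with neither motif, the CpG-rich Hoxa13 (chr6:52260831-52261130, minus strand) and Hoxd13 (chr2:74667975-74668274, plus strand), of 2 middle members with TTTATG in capitals on either strand, Hoxa7 (chr6:52218524-52218823, minus strand) and Hoxb8 (chr11:96281655-96281954, plus strand), and of Hoxa6 with its E box core in capitals (chr6:52208623-52208922, minus strand). Each is written on the strand of its gene.
Hoxa13: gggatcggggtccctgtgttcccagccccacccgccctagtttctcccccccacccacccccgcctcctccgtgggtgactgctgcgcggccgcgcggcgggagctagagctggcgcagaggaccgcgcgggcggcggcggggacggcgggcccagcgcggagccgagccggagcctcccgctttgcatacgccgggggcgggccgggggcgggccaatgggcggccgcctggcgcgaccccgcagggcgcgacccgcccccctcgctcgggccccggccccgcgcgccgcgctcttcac
Hoxd13: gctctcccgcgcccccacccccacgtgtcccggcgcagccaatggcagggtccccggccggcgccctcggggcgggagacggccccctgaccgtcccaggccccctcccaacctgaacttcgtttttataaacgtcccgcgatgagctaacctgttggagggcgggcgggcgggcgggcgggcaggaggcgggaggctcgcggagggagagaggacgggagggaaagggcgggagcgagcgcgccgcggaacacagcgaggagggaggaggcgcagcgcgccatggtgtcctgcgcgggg
Hoxa7: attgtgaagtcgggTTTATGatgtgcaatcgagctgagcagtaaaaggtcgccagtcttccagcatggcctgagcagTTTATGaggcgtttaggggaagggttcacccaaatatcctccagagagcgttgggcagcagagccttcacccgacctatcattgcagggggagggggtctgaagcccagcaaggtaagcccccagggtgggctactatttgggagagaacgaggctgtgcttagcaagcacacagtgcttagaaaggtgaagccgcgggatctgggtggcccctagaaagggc
Hoxb8: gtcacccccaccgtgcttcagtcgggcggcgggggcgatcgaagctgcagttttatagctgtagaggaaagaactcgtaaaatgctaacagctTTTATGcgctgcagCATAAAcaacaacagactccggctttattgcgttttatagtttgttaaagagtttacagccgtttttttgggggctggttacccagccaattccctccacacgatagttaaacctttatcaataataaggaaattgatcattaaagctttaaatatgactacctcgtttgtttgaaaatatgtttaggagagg
Hoxa6: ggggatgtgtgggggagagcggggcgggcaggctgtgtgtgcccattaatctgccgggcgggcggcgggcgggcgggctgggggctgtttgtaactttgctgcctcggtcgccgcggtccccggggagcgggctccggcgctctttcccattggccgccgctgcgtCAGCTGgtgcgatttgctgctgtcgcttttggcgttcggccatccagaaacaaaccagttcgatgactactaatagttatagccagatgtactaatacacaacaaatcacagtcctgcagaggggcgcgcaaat

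The Hox genes summed to a higher level in colon than in SI, and their colon levels differed widely by cluster and paralog number. In SI 8 members had enough counts to be tested, and in colon 12 did not, all 9 Hoxc genes among them. The 39 genes together took 30002 to 34376 counts in a WT colon library and 111 to 262 counts in a WT SI library. Their summed level was 201 ± 5.99 CPM per kb (SD, n = 6) in WT colon and 197 ± 14.5 in 9S/T-A colon, against 1.52 ± 0.323 in SI of WT mice and 1.31 ± 0.238 in SI of the mutants. In colon the Hoxb cluster carried 79.2% of that sum in WT and 78.2% in 9S/T-A, the Hoxa cluster 15.8% and 15.9%, the Hoxd cluster 5.03% and 5.87%, and the Hoxc cluster 0.0277% and 0.0198%.

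**Figure D1:**
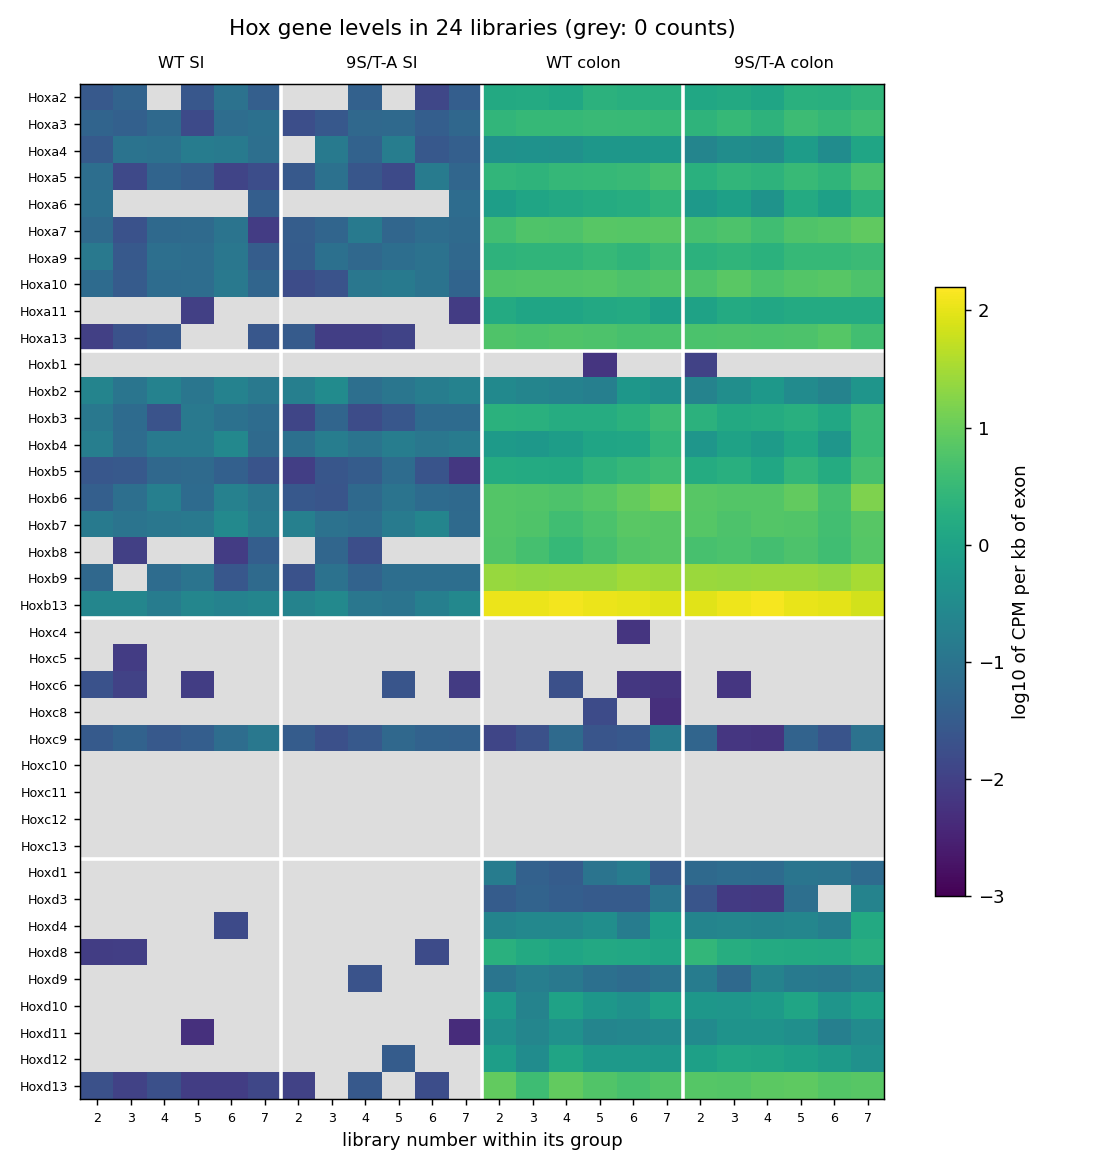
Level of each of 38 Hox genes (rows, by cluster and paralog number) in each of the 24 libraries (columns, by group and library number), as log10 of CPM per kb of exon, with grey for 0 counts. The Hoxa, Hoxb and Hoxd blocks are bright in the 12 colon libraries, the Hoxc block is mostly grey throughout, and Hoxb13 is the brightest row in colon.

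Hoxb13, the most posterior gene of the Hoxb cluster, led in colon. Its level in WT colon was 246, 245.9, 281, 245.6, 220 and 190 CPM in numbers 2 to 7, and in 9S/T-A colon 209, 256, 293, 233, 217 and 151 CPM. In both genotypes number 4 was the highest and number 7 the lowest. Per kb this was 108 in WT colon, and Hoxb13 alone held 53.7% of the summed Hox level there, from 43.5% to 60.4% in single libraries. Hoxb9, the next member of the cluster, followed at 25.5 CPM per kb, and its CPM ran from 59.7 to 79.3 in WT colon. The Hoxb13 and Hoxb9 ranges per kb did not overlap, and neither did those of Hoxb9 and of Hoxb6, the third in order.

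Below these, the order in WT colon was close. Hoxb6 was at 8.16 CPM per kb, Hoxd13 at 6.51, Hoxa7 at 6.12, Hoxa10 at 6.07, Hoxb7 at 6.03, Hoxa13 at 5.39 and Hoxb8 at 5.36. Each of these neighbours overlapped in range with the next, so their order is not resolved by 6 libraries. The lower members of the Hoxa cluster were Hoxa5 at 3.16, Hoxa3 at 3.04, Hoxa9 at 2.72, Hoxa2 at 1.69, Hoxa6 at 1.53, Hoxa11 at 1.27 and Hoxa4 at 0.503 CPM per kb. In the Hoxb cluster Hoxb5 was at 2.27, Hoxb3 at 2.16, Hoxb4 at 1.18 and Hoxb2 at 0.313, and Hoxb1 had 1 count in all 6 WT colon libraries. In the Hoxd cluster Hoxd13 was followed by Hoxd8 at 1.39, Hoxd12 at 0.685, Hoxd10 at 0.641, Hoxd4 at 0.356, Hoxd11 at 0.311, Hoxd9 at 0.108, Hoxd1 at 0.085 and Hoxd3 at 0.0466 CPM per kb.

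**Figure D2:**
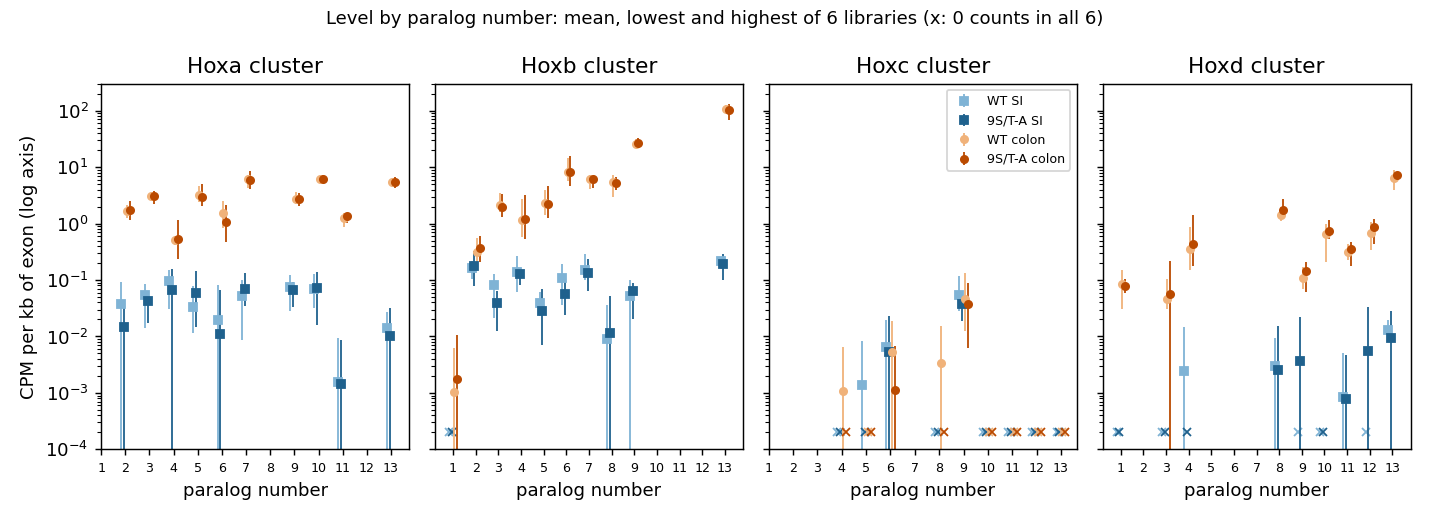
Mean level of 38 Hox genes in CPM per kb of exon (log axis) against paralog number, in 1 panel per cluster. Points are means of 6 libraries in SI (blue squares) and colon (orange circles), lighter for WT and darker for 9S/T-A, bars run from the lowest to the highest library and leave the axis where the lowest is 0, and crosses mark 0 counts in all 6. In colon the highest member of the Hoxb and of the Hoxd cluster is number 13, while the Hoxa members 7, 10 and 13 lie at 5.39 to 6.12 CPM per kb in WT.

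By paralog group, the 4 genes numbered 13 made up 59.6% of the summed Hox level in WT colon, although Hoxc13 had 0 counts. The 4 numbered 9 made up 14.2% and those numbered 7 made up 6.07%. The share of the numbers 9 to 13 together was 78.3% in WT colon and 78.2% in 9S/T-A colon, and that of the numbers 1 to 3 was 3.73% and 3.74%.

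The Hoxc cluster was nearly silent in both tissues. Hoxc10, Hoxc11, Hoxc12 and Hoxc13 had 0 counts in all 24 libraries, which, at 3 counts over the deepest and the shallowest library, allows 0.0456 to 0.0834 CPM in a single library. Hoxc4, Hoxc5, Hoxc6 and Hoxc8 had at most 5 counts in any group of 6 libraries. Hoxc9 was counted in all 24 libraries, with means in SI of 0.132 CPM (WT) and 0.0898 CPM (9S/T-A) and in colon of 0.112 and 0.0897 CPM. It was the only member of the cluster counted in every library, and it was too low to be tested. None of the 9 Hoxc genes passed the filter on low counts in colon, nor did Hoxb1, Hoxd1 and Hoxd3.

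The tissue comparison asked which Hox genes differed between colon and SI within a genotype. In WT, 26 of the 39 members passed the filter and all 26 were higher in colon by edgeR's quasi-likelihood test at an adjusted p under 0.05, where 33.1% of the 16979 genes tested were called higher in colon. In 9S/T-A, 26 members passed and 26 were higher, where 32.9% of the 16938 genes tested were called higher. Most of these passed through their colon level alone and so had to differ, which makes the counts a description of the members that passed. The median log2 fold change of the members tested was 6.54 in WT and 6.51 in 9S/T-A, against 0.03 and 0.04 over all genes tested. With members at 0 counts in SI set to their bound, the median was 6.40 in WT (3 members) and 6.51 in 9S/T-A (2 members). In both genotypes Hoxb2 was the only member tested whose colon and SI libraries overlapped. Most of the others passed the filter through colon and could hardly overlap. Their lack of overlap is a description and is not set against all genes.

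Both tissues were above the filter for 8 members, which also passed the filter within SI, and their log2 fold changes ran from 0.92 to 8.91 in WT and from 1.04 to 9.00 in 9S/T-A. The largest was that of Hoxb13, at 0.339 to 0.542 CPM in the 6 WT SI libraries and 0.224 to 0.624 CPM in the 6 9S/T-A SI libraries. Every colon library lay far above these values. The log2 fold change was 8.91 (adjusted p = 2.19e-15 by edgeR, SE 0.141) in WT and 9.00 (adjusted p = 2.25e-13 by edgeR, SE 0.244) in 9S/T-A. Hoxa7, a middle member of the Hoxa cluster, was at 15.8, 22.4, 21.2, 26.8, 25 and 27 CPM in WT colon numbers 2 to 7 and at 0.0319 to 0.373 CPM in WT SI. The groups lay far apart, with a log2 fold change of 6.75 (adjusted p = 9.41e-12 by edgeR, SE 0.272) in WT and 6.38 (adjusted p = 2.76e-11 by edgeR, SE 0.271) in 9S/T-A.

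The smallest difference was that of Hoxb2, a gene of the anterior end of its cluster. It was at 0.361 to 0.769 CPM in WT SI and 0.607 to 1.97 CPM in WT colon. These ranges overlapped, and the log2 fold change was 0.92 (adjusted p = 0.0181 by edgeR, SE 0.312) in WT and 1.04 (adjusted p = 0.0149 by edgeR, SE 0.339) in 9S/T-A. In WT the call was lost without colon number 6, at an adjusted p of 0.0549, and without number 7 of both tissues, at 0.064. It was named after its values were seen.

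Among the paralogs numbered 13, Hoxa13, which acts in hindgut and genital development, was at 12.2 to 14.3 CPM in WT colon and 10.53 to 16.45 in 9S/T-A colon, against at most 0.0679 and 0.0787 CPM in SI. Its log2 fold change was 8.55 (adjusted p = 6.42e-13 by edgeR, SE 0.267) in WT and 9.02 (adjusted p = 2.57e-12 by edgeR, SE 0.308) in 9S/T-A. Hoxd13, its counterpart in the Hoxd cluster, was at 21.9, 9.71, 22.4, 15.3, 12.2 and 15.5 CPM in WT colon numbers 2 to 7. The 9S/T-A colon libraries were closer together, at 15.7 to 20.02 CPM, and SI libraries of either genotype were at most 0.0697 CPM. The log2 fold change was 8.83 (adjusted p = 3e-12 by edgeR, SE 0.32) in WT and 9.41 (adjusted p = 1.27e-12 by edgeR, SE 0.302) in 9S/T-A. In 9S/T-A, leaving out SI number 2 gave 9.71 for Hoxa13 and leaving out SI number 4 gave 10.08 for Hoxd13, both still called.

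Other members with very large differences had almost no SI counts. Hoxb8 was at 16.4, 12.1, 7.93, 12.5, 17.2 and 18.7 CPM in WT colon numbers 2 to 7, and had 5 counts in the 6 WT SI libraries together. The log2 fold change in WT was 9.26 (adjusted p = 3e-11 by edgeR, SE 0.412), and 10.26 without SI number 7, which held the most SI counts. Hoxd12 had 688 counts in WT colon and 0 in WT SI, so that it was at least 144-fold higher in colon against a floor of 3 counts over the group, with an adjusted p of 4.08e-07 by edgeR. Hoxd10 had 465 counts in WT colon and 568 in 9S/T-A colon, and 0 in SI of either genotype. It was at least 97.1-fold higher in WT (edgeR adjusted p = 5.67e-06) and at least 114-fold higher in 9S/T-A (edgeR adjusted p = 4.03e-07). Hoxd4 had 542 counts in 9S/T-A colon and 0 in 9S/T-A SI, at least 109-fold higher (edgeR adjusted p = 0.000172), with a fitted log2 fold change of 9.16 that was 8.18 without colon number 7. Reads over exon bases shared by more than 1 gene of the same strand were not counted, and Hoxd4 shares 52.3% of its exon bases and Hoxd3 62.3%, with each other and with Gm28230, so the values of both are uncertain.

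Counts of 1 to 3 over a group of SI libraries were seen for Hoxa11, Hoxd8 and Hoxd11 in both genotypes. Hoxa11 had 1142 counts in WT colon and 1 in WT SI, a ratio of 716 with an exact 95% counting interval from 128 to 28300. Hoxd8 had 1510 counts in WT colon and 2 in WT SI, a ratio of 473 from 131 to 3910. Hoxd11 had 519 and 1, a ratio of 325 from 58.1 to 12900. These intervals and floors cover counting error only. Hoxd1 and Hoxd3, which were not tested, had 62 and 78 counts in WT colon and 0 in WT SI, at least 13-fold and 16.3-fold higher.

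The SI level relative to the colon level differed widely among members. In WT the SI mean was 0.203% of the colon mean for Hoxb13, 0.206% for Hoxb9, 0.169% for Hoxb8, 0.259% for Hoxa13 and 0.201% for Hoxd13. It was higher for many others, at 0.859% for Hoxa7, 1.14% for Hoxa10, 1.34% for Hoxb6, 2.82% for Hoxa9 and 3.77% for Hoxb3. It was highest among tested members for Hoxb4 (11.9%), Hoxa4 (19.2%) and Hoxb2 (51.4%), all numbered 2 or 4. The other tested members with these numbers were lower, Hoxa2 at 2.27% and Hoxd4 at 0.695%, the latter on 2 SI counts. Hoxa4, at 0.675 to 0.960 CPM in WT colon and 0.0481 to 0.238 CPM in WT SI, had a log2 fold change of 2.31 (adjusted p = 3.32e-06 by edgeR, SE 0.281) in WT and 2.97 (adjusted p = 0.000444 by edgeR, SE 0.589) in 9S/T-A. Of the 8981 genes over 10 CPM in WT colon, 8 had an SI mean under 0.2% of the colon mean and 51 under 1%. Of the 8800 genes over 10 CPM in WT SI, 49 had a colon mean under 0.2% of the SI mean. The source of the few SI counts of posterior members was not tested.

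Colon libraries of 1 group differed less for numbers 9 to 13 than for the lower numbers. Among members over 1 CPM, the coefficient of variation over 6 WT colon libraries was 5.37% to 46.6% (median 19.1%) for the 10 with numbers 9 to 13 and 18.3% to 73.0% (median 32.6%) for the 10 with numbers 4 to 8. Hoxa10, with 18.3 to 21.5 CPM, varied least in WT colon, and Hoxd4 most, with 0.444 to 2.56 CPM. In 9S/T-A colon the medians were 17.3% over 10 members and 37.3% over 9. The 4 members with numbers 1 to 3 had medians of 25.1% in WT and 35.1% in 9S/T-A.

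For some members part of this spread lay in library number 7 of both genotypes. It was the highest of its 6 colon libraries in WT and again in 9S/T-A for 11 of the 27 members tested in colon, where the same held for 19.1% of the 16997 genes tested there. Of these 11, 9 were among the 11 members with numbers 4 to 8 (Hoxa4, Hoxa5, Hoxa6, Hoxa7, Hoxb4, Hoxb5, Hoxb6, Hoxb8 and Hoxd4). Hoxb3 was the only 1 of 5 with numbers 1 to 3, and Hoxa9 the only 1 of 11 with numbers 9 to 13. Hoxb13 was the lowest in number 7 in both genotypes. These counts were made after the values were seen, and are given as a description.

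The departure of number 7 was largest for members numbered 4 of the Hoxb and Hoxd clusters. Hoxb4 was at 6.85 CPM in WT number 7 against 1.49 to 3.12 in the other 5 WT colon libraries, and at 8.29 CPM against 1.36 to 3.24 in 9S/T-A. Hoxd4 was at 2.56 against 0.444 to 1.07 CPM in WT and at 4.25 against 0.515 to 0.733 CPM in 9S/T-A. The ratio of number 7 to the mean of the other 5 was 3.04 and 3.99 for Hoxb4, and it was lower for each later member of that cluster up to Hoxb7, except that Hoxb6 exceeded Hoxb5 in WT. Hoxb5 had ratios of 1.98 in WT and 2.54 in 9S/T-A, Hoxb6 of 2.07 and 2.32, Hoxb7 of 1.21 and 1.20, Hoxb8 of 1.41 and 1.38, Hoxb9 of 1.07 and 1.28, and Hoxb13 of 0.769 and 0.624. In the Hoxa cluster the ratios were 1.25 and 2.96 for Hoxa4, 1.6 and 2.0 for Hoxa5, and 1.86 and 2.46 for Hoxa6. They were 1.21 and 1.58 for Hoxa7, 1.41 and 1.33 for Hoxa9, 1.0 and 0.892 for Hoxa10, and 0.915 and 0.749 for Hoxa13. The paralog number did not order all members, with Hoxb3 at 1.81 and 2.01. Hoxd10 was at 1.65 and 1.3, and Hoxd12 at 0.84 and 0.446.

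**Figure D3:**
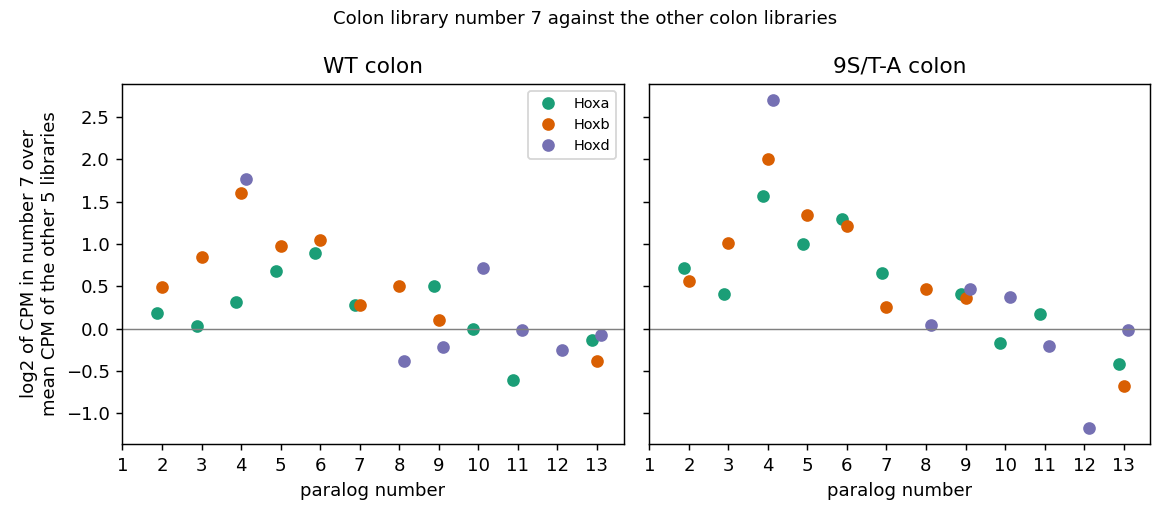
Log2 of the CPM in colon library number 7 over the mean CPM of the other 5 colon libraries of the same genotype, against paralog number, for 26 of the 27 Hox genes tested in colon, coloured by cluster. In both genotypes the highest point is that of Hoxd4, at 1.77 in WT and 2.70 in 9S/T-A. Hoxa4 is at 0.32 and 1.57, in WT below Hoxa6 at 0.89. Hoxb13 lies below 0, at -0.38 and -0.68.

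As a result the makeup of the Hox level shifted in number 7 while its sum did not. Summed over the 39 genes, number 7 was at 198 CPM per kb in WT colon and 192 in 9S/T-A colon, inside the ranges of 192 to 211 and 181 to 217. The numbers 4 to 8 held 26.2% of the sum in WT number 7 against 12.6% to 20.5% in the other WT colon libraries, and 29.7% against 13% to 18.4% in 9S/T-A. The share of the numbers 9 to 13 was 69.2% in WT number 7 and 64.8% in 9S/T-A number 7, each the lowest of its 6.

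**Figure D4:**
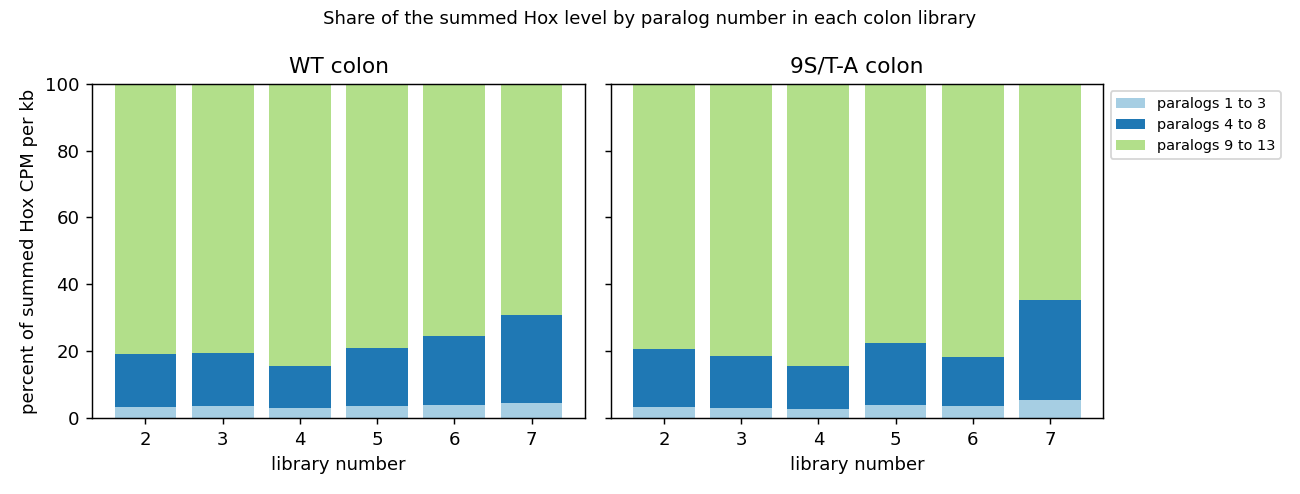
Percent of the summed Hox level (CPM per kb over 39 genes) held by members with paralog numbers 1 to 3, 4 to 8 and 9 to 13, as stacked bars for each of the 6 colon libraries of each genotype. The middle share is largest in number 7 of both genotypes, at 26.2% in WT and 29.7% in 9S/T-A, and smallest in number 4, at 12.6% and 13%.

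Other measures moved with number 7 as well. The 3 tuft cell markers summed to 29.5 CPM there against 9.86 to 14.1 in the other WT colon libraries, and to 21.9 against 6.88 to 11.5 in 9S/T-A. The 5 leukocyte markers summed to 2.49 against 0.866 to 1.38 CPM in WT and to 2.26 against 0.472 to 1.34 in 9S/T-A, with Csf1r, Cd3e and Cd79a under 1 CPM in all colon libraries. The 4 secretory markers were the lowest there, at 12500 against 13900 to 17800 CPM in WT and 13000 against 18900 to 21200 in 9S/T-A, as were the 4 epithelial markers, at 3690 against 4310 to 4750 and 3170 against 4450 to 5080 CPM. Cdx1, a caudal factor, was at 257 CPM against 322 to 374 in WT and at 246 against 310 to 362 in 9S/T-A, while Cdx2 was inside the range of the other libraries in both genotypes. The fibroblast sum in number 7 was below the others in WT, at 7.83 CPM, and inside their range in 9S/T-A, at 7.11. The part of these measures in the Hox values was not tested.

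The genotype comparison asked whether the 9S/T-A mutation changed Hox levels within a tissue. It gave 0 called Hox genes. In colon, where 0.318% of the 16997 genes tested were called in either direction, 0 of 27 members were called by edgeR, and 0 had an unadjusted p under 0.05, against 1 by DESeq2, Hoxd8. In SI, where 1.94% of the 16236 genes tested were called, 0 of 8 members were called by edgeR or DESeq2, and 1 had an unadjusted p under 0.05 by either, Hoxb3. For colon, 15 of the 27 log2 fold changes lay within 0.1 of 0, 20 were above and 7 below, and the median was 0.05 against 0.00 over all genes tested. The 15 and the 7 were all of the Hoxa and Hoxb clusters. Every Hoxd member tested was above 0, from 0.15 (Hoxd13) to 0.43 (Hoxd9), and none was called. This split by cluster is a description made after the values were seen.

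**Figure D5:**
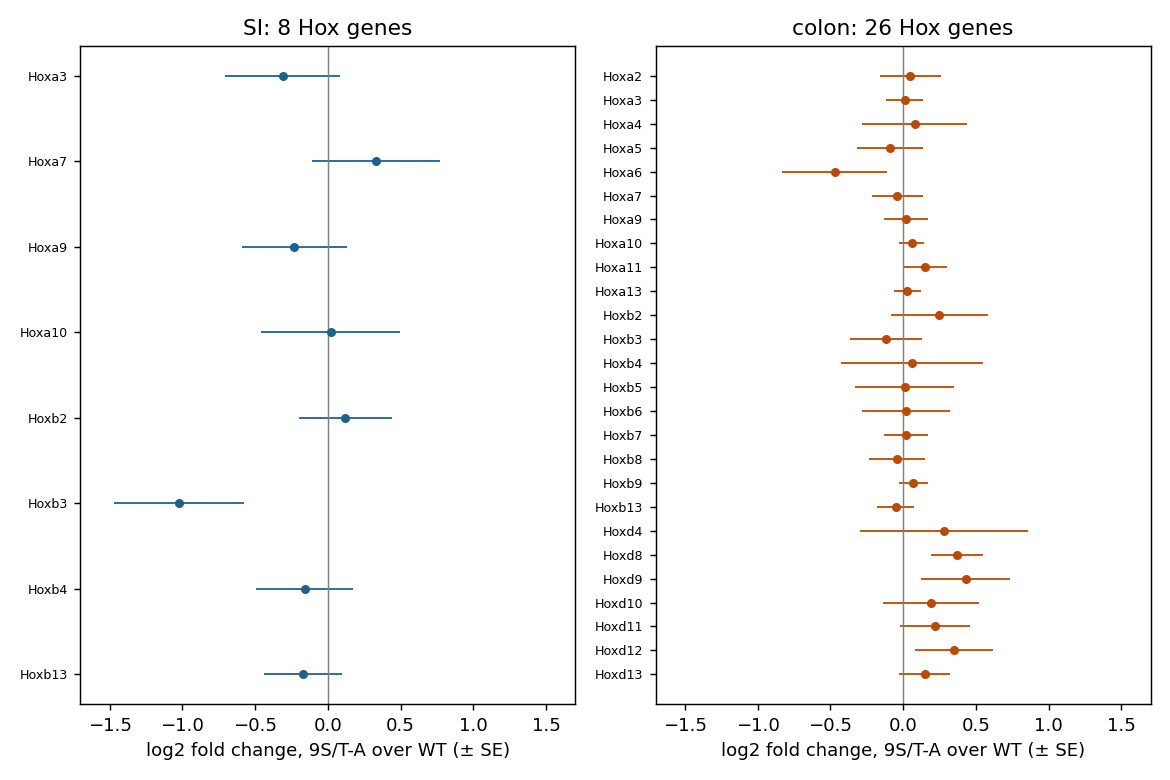
Log2 fold change of 9S/T-A over WT with its SE for the 8 Hox genes tested in SI (left) and 26 of the 27 tested in colon (right), from edgeR fits within each tissue. In colon 15 of the 26 points lie within 0.1 of 0, and the point farthest from 0 is that of Hoxb3 in SI, at -1.02.

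In colon, Hoxd8 had the smallest p. It was at 5.49, 3.96, 3.15, 3.73, 3.55 and 3.06 CPM in WT numbers 2 to 7 and at 7.48, 4.82, 4.09, 3.92, 3.82 and 4.99 CPM in 9S/T-A. The groups overlapped, and the log2 fold change of 0.37 (SE 0.180) had an edgeR adjusted p of 0.591. Hoxd9 had 0.43 (adjusted p = 0.831 by edgeR, SE 0.306), with 0.148 to 0.360 CPM in WT and 0.130 to 0.452 in 9S/T-A. Hoxa6 had -0.47 (adjusted p = 0.861 by edgeR, SE 0.360), with 0.735 to 2.17 CPM in WT and 0.406 to 1.87 in 9S/T-A. The groups overlapped for all 27 members, which is a description and is not set against all genes.

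The genes highest per kb in WT colon in each of 3 clusters were close between genotypes there. Hoxb13 was at 238 ± 30.4 CPM (SD, n = 6) in WT and 226 ± 47.9 in 9S/T-A, with a log2 fold change of -0.05 (adjusted p = 1.0 by edgeR, SE 0.127). Hoxd13 was at 16.2 ± 5.08 and 17.7 ± 1.80 CPM, with 0.15 (adjusted p = 0.976 by edgeR, SE 0.175). Hoxa7 was at 23.0 ± 4.21 and 22.1 ± 5.63 CPM, with -0.04 (adjusted p = 1.0 by edgeR, SE 0.175). Hoxa4, a low gene in colon but the highest Hoxa member per kb in WT SI, was at 0.801 ± 0.123 and 0.833 ± 0.580 CPM, with 0.08 (adjusted p = 1.0 by edgeR, SE 0.361), and the wider spread in 9S/T-A came with 1.86 CPM in number 7 and 1.19 in number 5. None of these differences was larger than the spread between libraries.

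In SI, Hoxb3 was at 0.505, 0.284, 0.0905, 0.542, 0.373 and 0.287 CPM in WT numbers 2 to 7 and at 0.0524, 0.208, 0.0697, 0.112, 0.276 and 0.275 CPM in 9S/T-A. These levels rest on 87 and 45 counts over 6 libraries each. The groups overlapped, and the log2 fold change of -1.02 (SE 0.446) had an edgeR adjusted p of 0.282. Hoxa3 had -0.31 (adjusted p = 0.751 by edgeR, SE 0.394), Hoxa7 0.33 (adjusted p = 0.765 by edgeR, SE 0.442) and Hoxb13 -0.17 (adjusted p = 0.801 by edgeR, SE 0.270). At these counts even the log2 fold change of -1.02 was not called, so differences in SI that are not small could be missed. A further 19 members, tested in colon, were too low to be tested in SI.

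The interaction of genotype and tissue was tested over all 24 libraries, where edgeR called 0.412% of the 17953 genes tested. It called 0 of 27 members by edgeR, with 0 at an unadjusted p under 0.05, and 0 by DESeq2. Of the 27, 19 were too low to be tested within SI, so a call could hardly be reached for them. Hoxd10, with 0 SI counts in either genotype, had an SE of 442. The smallest p was that of Hoxb3, whose interaction term was 0.87 on the log2 scale (adjusted p = 0.638 by edgeR, SE 0.500). Those of Hoxa2, at 1.23 (adjusted p = 0.666 by edgeR, SE 0.733), and of Hoxb6, at 0.99 (adjusted p = 0.679 by edgeR, SE 0.606), followed. Hoxb13 had 0.09 (adjusted p = 0.978 by edgeR, SE 0.281), Hoxd13 0.57 (adjusted p = 0.918 by edgeR, SE 0.782), Hoxa4 0.65 (adjusted p = 0.877 by edgeR, SE 0.685) and Hoxa7 -0.38 (adjusted p = 0.897 by edgeR, SE 0.431).

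Most tested genes that flank the clusters or lie inside them were higher in colon, as were most Hox genes beside them. Nearly all of them had few or no SI counts. Evx1 and Evx2, homeobox genes next to the posterior ends of the Hoxa and Hoxd clusters, had 168 and 250 counts in the 6 WT colon libraries and 0 and 1 in WT SI, and both were called higher in colon in both genotypes. Of 43 non-coding genes between the outermost members of a cluster, 11 were tested in WT and 10 were higher in colon, and 9 were tested in 9S/T-A and 9 were higher, against 33.1% and 32.9% of all genes tested. Within SI alone 2 of the 43 had enough counts to be tested, so most of the others passed the filter through colon, where they were high, and had to differ. The same holds for Evx1 and Evx2, which were not tested within SI. The 2 were Hoxb3os, lower in WT colon as given below, and Gm11539, a pseudogene with a small rise. Its log2 fold change was 0.66 in WT and 0.54 in 9S/T-A, so neither had the large difference of most Hox genes. Gm53, a lincRNA between Hoxb9 and Hoxb13 (chr11:96251105-96264868), was at 46.1 to 84.6 CPM in WT colon and 0.0226 to 0.175 CPM in WT SI. Its log2 fold change was 9.04 (adjusted p = 6.79e-13 by edgeR, SE 0.284). Hoxa11os, annotated opposite Hoxa11 on the other strand (chr6:52244393-52249799), was at 21.6 to 61.1 CPM in WT colon, with 9.00 (adjusted p = 3.9e-11 by edgeR, SE 0.410). Counting was by strand. Gm53 and Hoxa11os were both highest in number 7 of each colon group, at 84.6 and 61.1 CPM in WT and at 86.2 and 50.9 CPM in 9S/T-A. Hotair, a non-coding gene of the Hoxc cluster, had 0 counts in all 24 libraries. The exception to the direction was Hoxb3os, with a log2 fold change of -1.12 in WT (adjusted p = 0.0046 by edgeR, SE 0.305), which with plain library totals was -0.40 (adjusted p = 0.248).

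Cofactors and regulators did not share the pattern of the Hox genes. Over all genes tested, 30.4% were called lower in colon in WT and 28.0% in 9S/T-A. Of 9 TALE cofactors, 7 were tested in WT, of which Pbx3, Pbx4 and Meis2 were lower in colon and 1 was higher. Meis2 was at 0 to 0.0493 CPM in WT colon and 0.511 to 1.26 CPM in WT SI, with a log2 fold change of -5.20 (adjusted p = 7.04e-08 by edgeR, SE 0.447). Meis1 was hardly counted, with 23 counts in WT colon and 7 in WT SI. In 9S/T-A, 8 were tested, of which the same 3 were lower in colon and 1 was higher. With plain totals 4 were higher and 3 lower in WT, and 4 were higher and 2 lower in 9S/T-A, so the split rests on the scaling. Pbx3 was then at -0.09 in 9S/T-A (adjusted p = 0.503 by edgeR).

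Of 3 caudal factors, Cdx1 was at 257 to 374 CPM in WT colon and 230 to 294 in WT SI, with 0.28 (adjusted p = 0.0215 by edgeR, SE 0.097), Cdx2 had 0.13 (adjusted p = 0.184 by edgeR, SE 0.0808), and Cdx4 was not tested. Neither was called in 9S/T-A. With plain totals both were called higher in colon in both genotypes, at 0.84 to 0.98, against the median shift of 0.74 and 0.85 given above. Of 16 genes of the Polycomb and trithorax groups, which keep Hox genes silent or active, 2 were higher and 9 lower in WT colon, and 1 and 6 in 9S/T-A. This split rests on the scaling, since plain totals gave 8 higher and 1 lower in WT and 10 higher and 0 lower in 9S/T-A. Of 9 retinoid signalling genes, 4 were tested. Rarg, a retinoic acid receptor, was higher in WT colon at 1.95 (adjusted p = 9.5e-11 by edgeR, SE 0.0958), and Aldh1a3, which makes retinoic acid, at 3.34 (adjusted p = 2.38e-06 by edgeR, SE 0.393). Rara and Aldh1a1 were lower in both genotypes, and with plain totals Rara stayed called and Aldh1a1 was called in 9S/T-A alone.

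By genotype, of all these lists, 1 gene was called, Cbx7 of the Polycomb group, higher in 9S/T-A SI at 0.69 (adjusted p = 0.0447 by edgeR, SE 0.164), and it was not called with plain totals (adjusted p = 0.128).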

How the data were processed

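The authors sequenced stranded mRNA libraries as 50-base single-end reads, aligned them with TopHat2 2.1.1 to GRCm38 (GRCm38.p3 in the submitters' processing notes, which also list DESeq2 1.14.1) and deposited raw counts per Ensembl gene, made by featureCounts (Subread 1.5.2) over exons on 1 strand from primary alignments, without normalization. GENCODE M21 named 44671 of 45513 genes, and 38 of 39 Hox genes had the same position there.

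CPM used TMM factors over 24 libraries. Contrasts were fitted on their 12 libraries, and the interaction on 24, with the quasi-likelihood test of edgeR 4.0.16 (R 4.3.3), after filterByExpr and TMM, two-sided, with Benjamini-Hochberg adjustment over all genes tested. SE came from the F statistic, and the procedure was checked on simulated data. Alternatives were DESeq2 1.42.0, RLE factors, no filter, a count minimum (a mean of 10), sex as covariate, a replicate block, all 24 libraries, each library left out and, chosen after seeing the data, number 7 left out of every group and library totals without TMM.

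Genes given with SE were the 4 largest rises among called members of a tissue contrast (none fell) and paralogs numbered 13, the highest member of each cluster per kb in SI and in colon, and the 3 smallest p of a genotype contrast or interaction, besides the listed genes and those said to be named later. Members and lists were chosen with earlier results of these data known. A few listed genes, 1 of them a Hox gene, are not reported here, though counts over the list include them. Protein sequences were not used here. Intervals and floors cover counting error only.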

Additional observations from a re-analysis of the deposited data

Results flagged for a closer look

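In 70 groups of 6 libraries (a Hox gene in 1 group of genotype and tissue) 8 had a library whose gap to its nearest neighbour, divided by the range of the group, exceeded Dixon's 95% critical value. For independent normal values such a gap comes in about 1 in 20 groups. The groups here share libraries, and no rate over all genes is given, so the count is a description. Colon number 7 was the highest of its 6 in both genotypes for 19.1% of all genes tested in colon. In 6 of the 8 the library was colon number 7 and the highest of its group. They were Hoxb3 in WT (0.719, at 14.7 CPM with the next at 9.07), Hoxb4 in WT (0.695) and 9S/T-A (0.728), Hoxd4 in WT (0.704) and 9S/T-A (0.942, at 4.25 CPM with the next at 0.733), and Hoxa5 in 9S/T-A (0.627, at 9.44 CPM with the next at 5.93). In the other 2 it was colon number 2, the highest for Hoxd8 in both WT (0.628, at 5.49 CPM with the next at 3.96) and 9S/T-A (0.681, at 7.48 CPM with the next at 4.99). Hoxd4 shares exon bases with its neighbours and is uncertain.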

How the results depend on the processing

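Over all alternatives run, 25 to 29 Hox genes were called higher in colon in WT and 25 to 29 in 9S/T-A (25 to 27 and 26 to 27 with 1 library left out), and 0 for genotype in SI, genotype in colon and the interaction. In 9S/T-A, DESeq2 called 25, giving no p for Hoxd4. With number 7 left out of every group, WT lost Hoxb2. Among the values named by the rule, directions reversed for 3 genes, none of them called. For genotype in colon, Hoxa4 was 0 with sex as a covariate, -0.1 with the replicate block and -0.27 with number 7 left out of every group, and ran from -0.35 to 0.25 with 1 library left out. With 1 library left out, Hoxa7 ran from -0.19 to 0.06 and Hoxb13 from -0.13 to 0.03 there, and the interaction of Hoxb13 from -0.01 to 0.23. The other 755 alternatives for values named by the rule kept direction and side. Counting every member tested, values of both signs came with 1 library left out for 3 of 8 Hox genes for genotype in SI, 16 of 27 in colon and 14 of 27 for the interaction, none of them called, and for 0 in either tissue contrast. The interaction of Hoxd12, -2.29, ran from -2.57 to 0.36, and that of Hoxd9, -1.74, from -1.98 to 0.43.

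The replicate block changed no call of a Hox gene. For genotype in colon it gave 2 members an unadjusted p under 0.05, Hoxd8 (0.00432, adjusted p = 0.0956 by edgeR) and Hoxa6 (0.0171, adjusted p = 0.178), each to 1 side in 6 of 6 same-numbered colon libraries. Same-numbered libraries deviated together unevenly (mean correlation 0.144 to 0.293 over the 4 contrasts, over 0.1 in 3 to 5 of 6 pairs). The correlation was best with the own number for 5 of 6 in the WT tissue contrast and 6 of 6 in that of 9S/T-A. It was so for 2 of 6 for genotype in SI and 4 of 6 in colon. The labels do not say what a number marks, so the numbers were not taken as pairs in the main fits. Over all genes, the block raised the calls from 315 to 477 for genotype in SI, from 54 to 385 in colon and from 74 to 342 for the interaction, and DESeq2 gave 779, 254 and 257. All 24 libraries gave 520 in SI and 103 in colon, no filter 90 and sex as covariate 89 in colon, and number 7 left out 43 for the interaction. With 1 library left out these counts ran from 188 to 550, 30 to 72 and 50 to 112. With library totals 86.5% of tissue calls were higher in colon in WT and 88.4% in 9S/T-A, against 52.1% and 54.0%, and the share higher in 9S/T-A was 29.1% against 53.3% in SI, while 89.0% of interaction calls were above 0, against 70.3%. Depth limits SI, where 19 of the 27 members tested in colon were too low to be tested.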
